A study of Homo sapiens with 4 samples.

Results

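Hedgehog signalling was examined through 8 genes of the pathway: the ligand gene IHH, the receptor gene PTCH1, the ligand-binding inhibitor gene HHIP, the signal transducer gene SMO, the inhibitor gene SUFU and the 3 transcription factor genes GLI1, GLI2 and GLI3. They were found by gene name among the 34675 genes measured, and all 8 had a row. The group was chosen by the folds and adjusted p-values of this same comparison, GLI2's above all. RNA was sequenced from stable lines of MDA-MB-231, a triple-negative breast carcinoma line. The vector group (2 libraries) carried empty pcDNA, and the LKB1 group (2 libraries) carried pcDNA with FLAG-tagged wildtype LKB1, the kinase that STK11 encodes. Both were grown on plastic in DMEM with serum, and no other treatment is named. The labels do not say whether a line was a clone or a pool, nor whether its libraries came from separate cultures, so every p-value measures a spread between libraries that may be technical.

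In the resting pathway, the receptor PTCH1 keeps SMO inactive. A ligand (SHH, IHH or DHH) relieves this block, and SMO then acts in the primary cilium to release GLI proteins from SUFU. GLI2 is mainly an activator, GLI3 is mainly processed to a repressor, and GLI1 is an activator whose own gene is a target. PTCH1 and HHIP are targets too and act as negative feedback. In breast carcinoma cells that grow in bone, GLI2 is also known as an effector of TGF-beta that does not need SMO, with PTHLH as a target.

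The authors' deposited table compares the lines once and gives no value per library. Its header does not say which line is the numerator. LKB1 was taken as the numerator, since STK11, with 1321 reads under vector and 2112 under LKB1, is listed in the authors' deposited table at a fold of 1.54 (log2 of 0.62 and adjusted p = 0.00105). STK11 is therefore no independent check of the labels, and all directions rest on it. In an exact negative binomial test with an assumed variation of 0.2 between libraries, STK11 did not pass (adjusted p = 0.554). Read totals add up the 2 libraries of each line and were recovered from the folds. The depth of LKB1 was taken as 1.04 times that of vector, from the small counts that the folds carry and not from library sizes. Genes whose adjusted p lay under 0.05 are called. Of 8 markers of mesenchymal breast carcinoma, VIM and EGFR among them, all lacked a match to totals of up to 3000 reads. They were treated as having more in at least 1 line. Of 8 luminal or epithelial markers, 5 had at least 40 reads, with summed reads over all 8 of 2171 under vector and 2981 under LKB1. ESR1 (8 and 12), PGR (4 and 0) and FOXA1 (1 and 0) were low. CLDN4 (1284 and 2149, called higher), CDH1 (431 and 278), GATA3 (259 and 290), EPCAM (152 and 209) and CLDN3 (32 and 43) were measured above them. A test for sample mix-ups found 1 group of 2 at odds with the cell line that the labels name, which bears on every difference given here. The titles of the groups also differ (mRNA for vector and fmRNA for LKB1, with no meaning given), and 1 LKB1 library carries another run tag than the other 3. Their part in the results was not tested.

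A consensus GLI site was sought in RefSeq promoters (250 bases before to 50 after each start, GRCh38.p14), because PTCH1 is the textbook GLI target and was among the called genes. The motif was GACCACCCA on either strand, which reads TGGGTGGTC on the other. It was held by 83 of 35116 promoters (0.236%). Entries were found for 6 of the 8 genes, not for GLI1 and GLI3. Of their 11 promoters 1 held the motif, at 1 of the 5 starts of PTCH1. Of the other pathway genes 44 had entries, and 0 of their 69 promoters held it. The match at PTCH1 begins 172 bases before its start and overlaps no exon of PTCH1 in GENCODE 29. One of the 2 starts of GLI2 held only the 7 bases TGGGTGG, which 9.19% of all promoters held on either strand. The 2 stretches are shown 5′ to 3′ on the gene's strand, with the matching bases in capitals. The first is on the minus strand at chr9:95509370-95509498 and the second on the plus strand at chr2:120735682-120735770. A match is a description of these letters and not evidence of binding.
PTCH1: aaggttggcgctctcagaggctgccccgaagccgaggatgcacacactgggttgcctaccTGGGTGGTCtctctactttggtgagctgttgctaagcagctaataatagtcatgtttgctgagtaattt
GLI2: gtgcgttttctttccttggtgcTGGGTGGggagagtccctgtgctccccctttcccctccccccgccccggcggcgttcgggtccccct

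In the authors' deposited table, GLI2 and PTCH1 were higher in the LKB1 line, and GLI3 and HHIP were lower. The genes were selected on these values, so the calls are given as a description. Of the 8 genes 4 were called, 2 in each direction, where 5.79% of all 34675 genes were called (2.55% higher and 3.24% lower), and nothing is read from that count. At least 40 reads were counted for 5 genes. The other 3, IHH, SMO and GLI1, had at most 4 reads in either line.

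**Figure D1:**
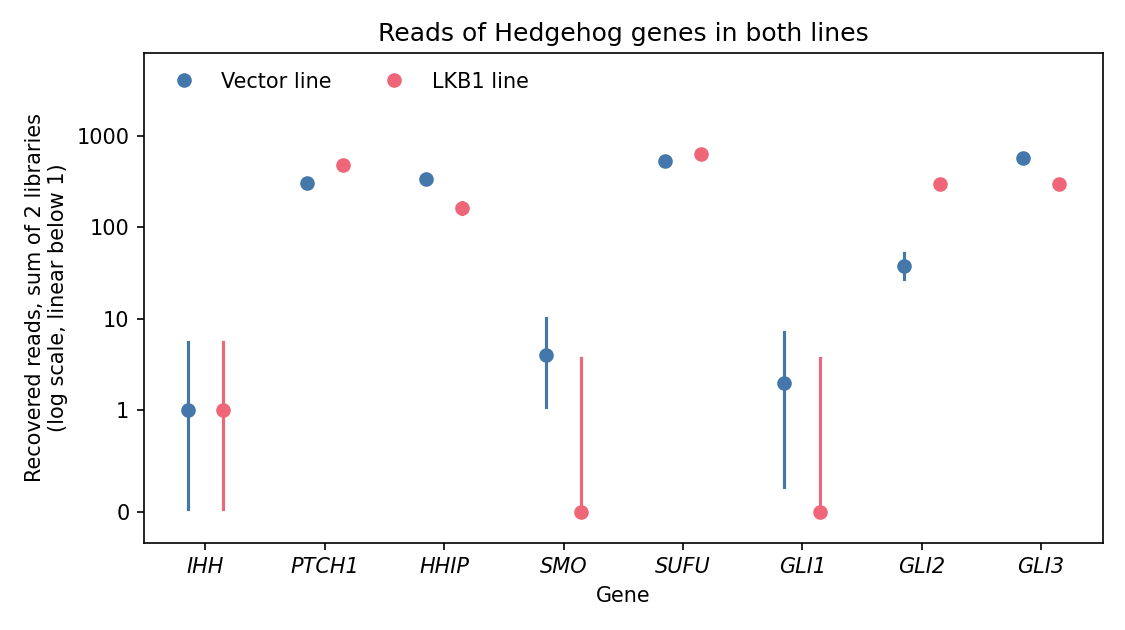
Reads of the 8 Hedgehog genes (x axis) in the vector line (blue) and the LKB1 line (red), as sums of 2 libraries on a log axis that is linear below 1; bars are exact Poisson 95% intervals, which cover counting error only. GLI2 stands at 38 and 296 reads, GLI3 at 572 and 294, while IHH, SMO and GLI1 stand at 4 reads or fewer.

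The ligand gene IHH (ENSG00000163501.5, chromosome 2, 219919146 to 219925189, minus strand, hg19, as all gene coordinates here) had 1 read in each line. At that depth no difference could be detected, with a counting interval of the ratio from 0.0123 to 75.5. Of the other ligand genes, SHH had 8 reads under vector and 11 under LKB1 (adjusted p = 1 in the authors' deposited table). DHH, the ligand gene known from Schwann cells, testis and endothelium, had 17 and 1, a ratio of vector over LKB1 of 17.7 with a counting interval of 2.77 to 739. Its adjusted p was 0.0204 by the authors' deposited table. No ligand gene thus had more than 17 reads in a line. SCUBE3, of a family of secreted proteins that help ligand release, fell 5.54-fold from 97 to 18 reads (log2 -2.47, adjusted p = 6.68e-10 by the authors' deposited table). The acyltransferase gene HHAT (log2 -0.46, adjusted p = 0.422), the release transporter gene DISP1 (-0.20, adjusted p = 1) and DISP2 (-0.37, adjusted p = 0.779) did not pass in the authors' deposited table. SCUBE2 had 19 and 28 reads. In all, 2 of 9 genes of ligands and ligand release fell and none rose. With at least 40 reads 1 of 5 was called (20%), against 13.2% of all protein-coding genes with that many reads. No direction of the group is read from this.

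The receptor gene PTCH1 (ENSG00000185920.10, chromosome 9, 98205262 to 98279339, minus strand) had 301 reads under vector and 484 under LKB1. In the authors' deposited table it was 1.55-fold higher (log2 0.63, adjusted p = 0.0206), and the counting interval of the ratio was 1.34 to 1.79. The call was lost at an assumed variation of 0.2 between libraries (adjusted p = 0.613). The PTCH1 promoter with the GLI motif is the one printed above.

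HHIP (ENSG00000164161.5, chromosome 4, 145567173 to 145666423, plus strand), whose protein binds and sequesters ligands at the cell surface, went from 338 reads in the vector line to 163 in the LKB1 line. It was 2.15-fold lower (log2 -1.11 by the authors' deposited table, adjusted p = 6.39e-05), with a counting interval of 1.78 to 2.62. PTCH1 and HHIP, both feedback targets of GLI proteins, therefore had deposited folds of opposite sign. HHIP-AS1, a non-coding gene on the opposite strand that overlaps HHIP by 15337 bases, had 55 and 29 reads (log2 -0.97, adjusted p = 0.234 by the authors' deposited table). Whether strand was used in counting is not given in the sources used here, so reads of HHIP and HHIP-AS1 may not be told apart in the shared stretch.

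SMO (ENSG00000128602.5, chromosome 7, 128828713 to 128853386, plus strand) is the membrane protein through which the canonical signal passes. It had 4 reads under vector and 0 under LKB1, and its difference was not detectable at this depth (adjusted p = 0.702 by the authors' deposited table). The count of 0 allows up to 3 reads, and the counting interval of the ratio of LKB1 over vector reached 1.46, so it included equality. Among co-receptor genes, CDON rose 1.70-fold from 613 to 1081 reads (log2 0.76, adjusted p = 0.000135 in the authors' deposited table). This call was lost at an assumed variation of 0.2 (adjusted p = 0.26). BOC had 61 and 43 reads (log2 -0.56, adjusted p = 0.802 by the authors' deposited table), GAS1 had 0 in both lines, and LRP2 had 4 and 8. Of the 8 receptor and co-receptor genes 2 rose, 1 fell and 5 did not pass. With at least 40 reads 3 of 5 were called (60%), against 13.2% of all such protein-coding genes. The 3 include PTCH1 and HHIP, which were selected on these values.

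SUFU (ENSG00000107882.7, chromosome 10, 104263744 to 104393292, plus strand), whose protein holds GLI proteins in the cytoplasm, had 523 reads under vector and 635 under LKB1. The log2 fold was 0.22 (adjusted p = 0.871 in the authors' deposited table) and the counting interval of the ratio was 1.04 to 1.31. That interval lies above 1, but it leaves out the spread between libraries that the deposited test includes.

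GLI1 (ENSG00000111087.5, chromosome 12, 57853918 to 57866045, plus strand), the GLI gene most often read as a sign of an active pathway, had 2 reads under vector and 0 under LKB1. Both lie under the limit of 3 reads that a count of 0 allows, so no fold is given (adjusted p = 1 in the authors' deposited table). GLI2 (ENSG00000074047.16, chromosome 2, 121493199 to 121750229, plus strand) had 38 reads under vector and 296 under LKB1. It was 7.45-fold higher (log2 2.90 by the authors' deposited table, adjusted p = 8.38e-24), and the counting interval of the ratio was 5.33 to 10.8. GLI3 (ENSG00000106571.8, chromosome 7, 42000548 to 42277469, minus strand) had 572 reads under vector and 294 under LKB1. It was 2.02-fold lower (log2 -1.02 by the authors' deposited table, adjusted p = 1.35e-06), with a counting interval of 1.75 to 2.34.

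The GLI genes together had 612 reads under vector and 590 under LKB1. GLI2 made up 6.21% of them in the vector line (Wilson 95% interval 4.56 to 8.41) and 50.2% in the LKB1 line (46.1 to 54.2). Per kilobase of the union of exons in GENCODE 29, GLI2 had 5.18 reads in the vector line and GLI3 52.2. In the LKB1 line the same scale gave 40.3 (35.9 to 45.2) for GLI2 and 26.8 (23.9 to 30.1) for GLI3, the reverse order. As the reads there were 296 and 294, that order rests on the lengths. The annotation used for counting is not given, so all levels per kilobase may carry a mismatch of lengths. With the length of the longest transcript, the levels in the LKB1 line were 43.5 (38.7 to 48.8) for GLI2 and 35.8 (31.8 to 40.2) for GLI3, whose counting intervals overlapped. As a share of the GLI level per kilobase, GLI2 held 8.94% under vector and 60.03% under LKB1. With the longest transcript the latter was 54.9%.

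**Figure D2:**
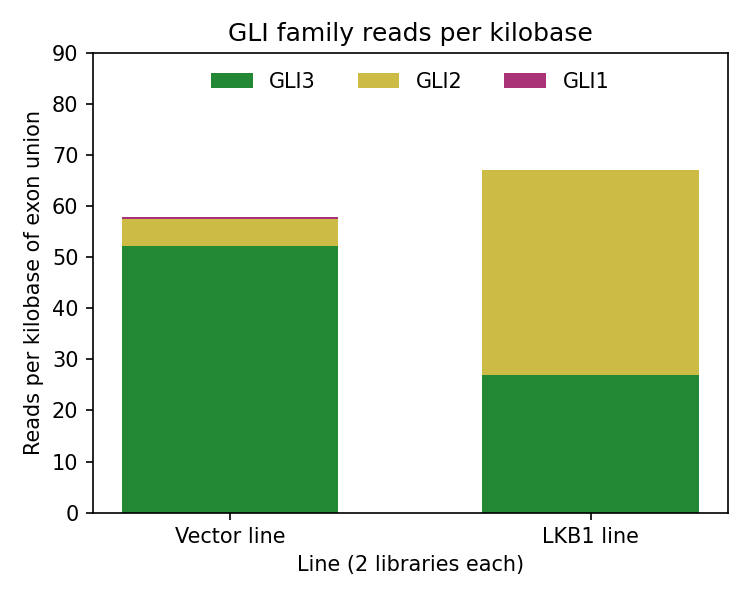
Stacked bars of reads per kilobase of exon union for GLI3 (green), GLI2 (yellow) and GLI1 (purple) in each line. Reads are summed over 2 libraries and not scaled for the 1.04 times greater depth taken for the LKB1 line. There are no values per library and so no error bars. GLI3 fills most of the vector bar (52.2 of 57.9) and GLI2 the larger part of the LKB1 bar (40.3 of 67.2).

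On the same scale per kilobase, SUFU had the highest level of the 8 genes in both lines, 76.2 under vector and 92.5 under LKB1. In the vector line it was followed by GLI3, HHIP at 28.0, PTCH1 at 18.1 and GLI2, whose counting intervals did not overlap. In the LKB1 line GLI2 came second, followed by PTCH1 at 29.2 and GLI3 at 26.8, and HHIP was at 13.5. The intervals of PTCH1 (26.6 to 31.9) and GLI3 (23.9 to 30.1) overlapped, so their order there is not resolved. Per kilobase of the longest transcript, PTCH1 stood at 45.5 (41.6 to 49.8) in the LKB1 line, above GLI2 with overlapping intervals, so the place of GLI2 next to SUFU depends on the length used. The intervals of HHIP (30.1 to 37.3) and PTCH1 (25.2 to 31.7) in the vector line also overlapped on that scale. SMO, IHH and GLI1 were under 1 read per kilobase of exon union in both lines and could not be ordered.

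No library values were given to show a spread, but the deposited p-values imply the variation that the test worked with. It is the coefficient of variation between libraries that gives the deposited p of a gene from its recovered reads. The test may have drawn it partly from other genes, so it is not a measured spread of the gene's own libraries. The implied value was 0.114 for GLI2, 0.102 for GLI3, 0.108 for PTCH1, 0.103 for SUFU and 0.126 for HHIP. When 0.2 was assumed for every gene, GLI2, GLI3 and HHIP passed, GLI3 at an adjusted p of 0.0436 and HHIP at 0.028. At 0.4 only GLI2 of the 8 genes passed, at an adjusted p of 0.00358.

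Over the rest of the pathway, most genes did not pass the test. Of 59 other genes in the 5 lists by role, 2 rose, 6 fell and 51 did not pass. Of the 45 with at least 40 reads 7 were called (15.6%), against 13.2% of all 12485 protein-coding genes with that many reads, so the share was near the background. Their median log2 fold in the authors' deposited table was -0.03 and that of all those protein-coding genes -0.02.

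Among GLI factors and their regulators, PRKACA and EVC were called besides GLI2 and GLI3, so 2 of 18 rose, 2 fell and 14 did not pass. With at least 40 reads 4 of 17 were called (23.5%), against 13.2% of all such protein-coding genes, and GLI2 and GLI3 were selected on these values. PRKACA, a catalytic subunit of protein kinase A, which primes GLI proteins for processing, fell 1.51-fold from 1631 to 1121 reads (log2 -0.60, adjusted p = 0.00355 in the authors' deposited table). PRKACA was near the median of -0.54 of its 24 nearest protein-coding genes with at least 40 reads, none of which had a log2 fold above 0. Its sister gene PRKACB had a log2 fold of 0.47 (adjusted p = 0.082) by the authors' deposited table. EVC, part of a complex at the base of the cilium that relays the signal of SMO, rose 1.49-fold from 1551 to 2406 reads (log2 0.58, adjusted p = 0.00319 by the authors' deposited table). Its partner gene EVC2 had 30 and 35 reads. GPR161, a ciliary receptor that restrains the pathway, was at -0.54 (adjusted p = 0.0544) and the kinesin gene KIF7 at -0.63 (adjusted p = 0.176) in log2 fold by the authors' deposited table. ITCH, a ubiquitin ligase gene, was at 0.27 there (adjusted p = 0.498). At an assumed variation of 0.2 neither PRKACA (adjusted p = 0.62) nor EVC (adjusted p = 0.675) passed.

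Of 16 primary cilium genes none rose, 2 fell and 14 did not pass. All 16 had at least 40 reads, and the share called (12.5%) was near the 13.2% of all such protein-coding genes. The kinesin adaptor gene KIFAP3 went from 389 to 268 reads (log2 -0.59, adjusted p = 0.0306) and the retrograde dynein gene DYNC2H1 from 309 to 208 (log2 -0.63, adjusted p = 0.034) by the authors' deposited table. The kinesin motor gene KIF3B (log2 0.41, adjusted p = 0.134) and KIAA0586 (-0.45, adjusted p = 0.139) did not pass in the authors' deposited table. The transition zone genes TCTN1 (0.50, adjusted p = 0.544) and RPGRIP1L (0.39, adjusted p = 0.6003) did not pass there either. Neither of the called cilium genes passed at an assumed variation of 0.2, with adjusted p of 0.74 for KIFAP3 and 0.679 for DYNC2H1.

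Of 20 measured Hedgehog and GLI target genes, 1 rose (PTCH1), 2 fell (HHIP and CCND2) and 17 did not pass. With at least 40 reads 3 of 10 were called (30%), against 13.2% of all such protein-coding genes, and PTCH1 and HHIP were selected on these values. MYCN, the remaining listed target, was not analysed here. The cyclin gene CCND2 fell from 82 to 5 reads, with a log2 fold of -4.02 in the authors' deposited table (adjusted p = 4.24e-12). BCL2, an inhibitor of apoptosis, had 261 and 219 reads (log2 -0.31, adjusted p = 0.864 by the authors' deposited table). The Notch ligand gene JAG2 (140 and 193 reads, log2 0.41, adjusted p = 0.732) and IGFBP6 (304 and 399, log2 0.34, adjusted p = 0.468) also missed the threshold in the authors' deposited table. PTHLH, the GLI2 target known from bone metastasis of these cells, had 3 reads under vector and 5 under LKB1, so a difference was not detectable at this depth (adjusted p = 1 by the authors' deposited table). The forkhead gene FOXC2 likewise had 6 and 1 (adjusted p = 0.705 in the authors' deposited table).

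**Figure D3:**
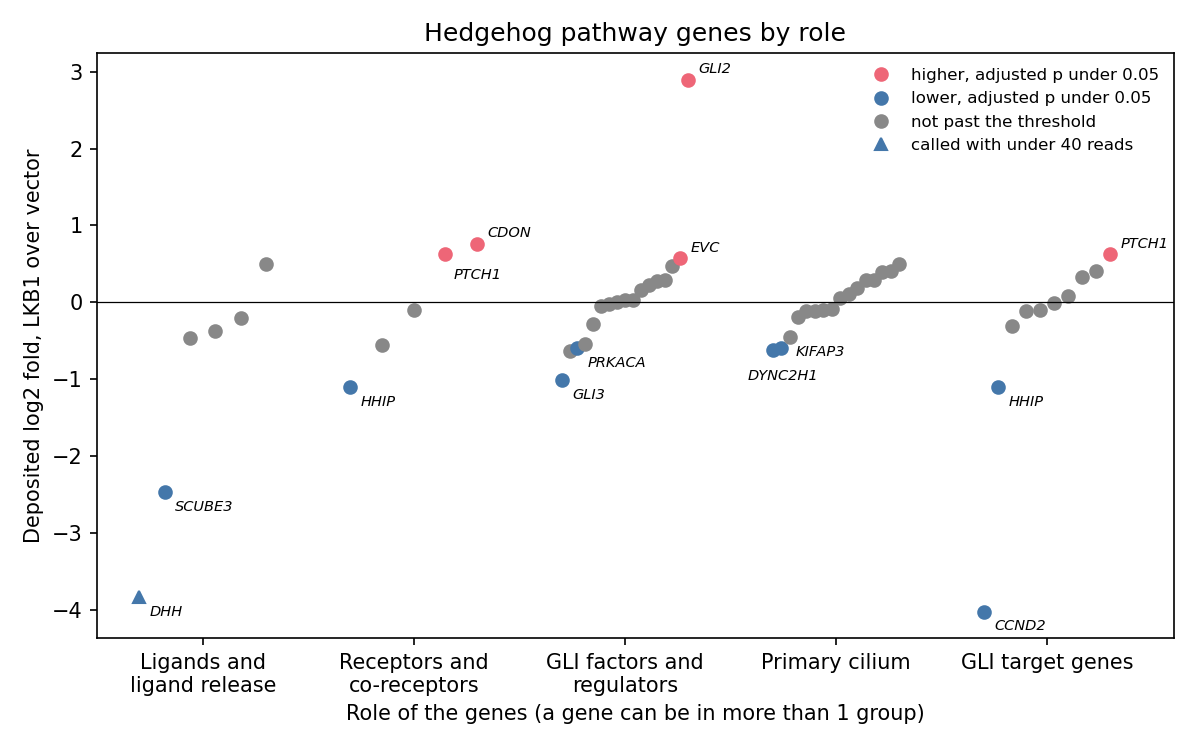
Deposited log2 folds (LKB1 over vector, y axis) of pathway genes with at least 40 reads, or called with fewer (triangle), by role; red and blue mark genes higher or lower at an adjusted p under 0.05 and grey all others. GLI2 at 2.90 is the highest point, and DHH at -3.84, which depends on the small count added before the ratio, and CCND2 at -4.02 are the lowest.

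Markers of other cell types were read beside the genes that fell. Of 7 measured endothelial markers all 7 were lower in the LKB1 line, with a median log2 fold of -3.06 in the authors' deposited table. Their summed reads were 2071 under vector and 290 under LKB1, and none was at 0 in both lines. Of 8 fibroblast markers 2 were lower and none higher and 6 did not pass (456 and 423 summed reads), with DCN and THY1 at 0 in both. Of 4 leukocyte markers CD14 was higher (67 and 144 reads), LCP1 was lower (693 and 200) and 2 did not pass (771 and 347 summed reads). These values stand beside the falls of GLI3, HHIP, DHH, SCUBE3 and CCND2, and their part in those falls was not tested. In bulk RNA, fewer cells of a type and less RNA per cell cannot be told apart.

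The neighbourhood of each gene was then described by the 24 nearest protein-coding genes with at least 40 reads, 12 on each side. Around GLI2, 22 of 24 neighbours had a log2 fold above 0 in the authors' deposited table, with a median of 0.28, and 5 were called, all higher (20.8%, against 13.2% of all such genes, of which 5.9% higher and 7.3% lower). The nearest neighbour downstream, TFCP2L1, a transcription factor gene of the CP2 family 224 kb away, rose from 56 to 290 reads (log2 2.31, adjusted p = 1.62e-14 in the authors' deposited table). GYPC, a membrane glycoprotein gene 5663 kb away, rose from 20 to 148 reads (log2 2.82), while INSIG2, BIN1 and LIMS2 had log2 folds of 0.56, 0.61 and 0.86 by the authors' deposited table. The nearest neighbour upstream, the inhibin subunit gene INHBB, had 26 and 17 reads (log2 -0.66, adjusted p = 0.898 by the authors' deposited table). None of the 24 had a higher log2 fold than GLI2.

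The neighbours of SMO, which lies on the long arm of chromosome 7, had a median log2 fold of 0.22 in the authors' deposited table. Of the 24, 5 were called higher and none lower (20.8%, against 13.2% of all such genes, of which 5.9% higher and 7.3% lower). SMO itself had almost no reads. Next to GLI3, the activin subunit gene INHBA, 258 kb away, fell from 236 to 46 reads (log2 -2.41, adjusted p = 3.16e-19 by the authors' deposited table). The neighbour on the other side, C7orf25, did not pass (log2 0.56, adjusted p = 0.229 by the authors' deposited table). The 24 neighbours of GLI3 had a median of -0.02 by the authors' deposited table, with 3 called lower and none higher (12.5%). Around PTCH1 none of 24 neighbours was called and the median was 0.07 by the authors' deposited table, with FANCC at -0.06 and ERCC6L2 at 0.08 on either side. Around HHIP the median was -0.12, with 1 called higher and 2 lower (12.5%). The nearest genes SMARCA5 (-0.13) and ANAPC10 (0.20) each had an adjusted p of 1 in the authors' deposited table. Around SUFU the median log2 fold of the neighbours was 0.14 in the authors' deposited table, with 5 called higher and none lower (20.8%). The neighbours of GLI1 had a median of -0.09 in the authors' deposited table, with 2 called lower and none higher (8.33%). Those of IHH had a median of -0.09 there, with 1 called lower and none higher (4.17%).

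**Figure D4:**
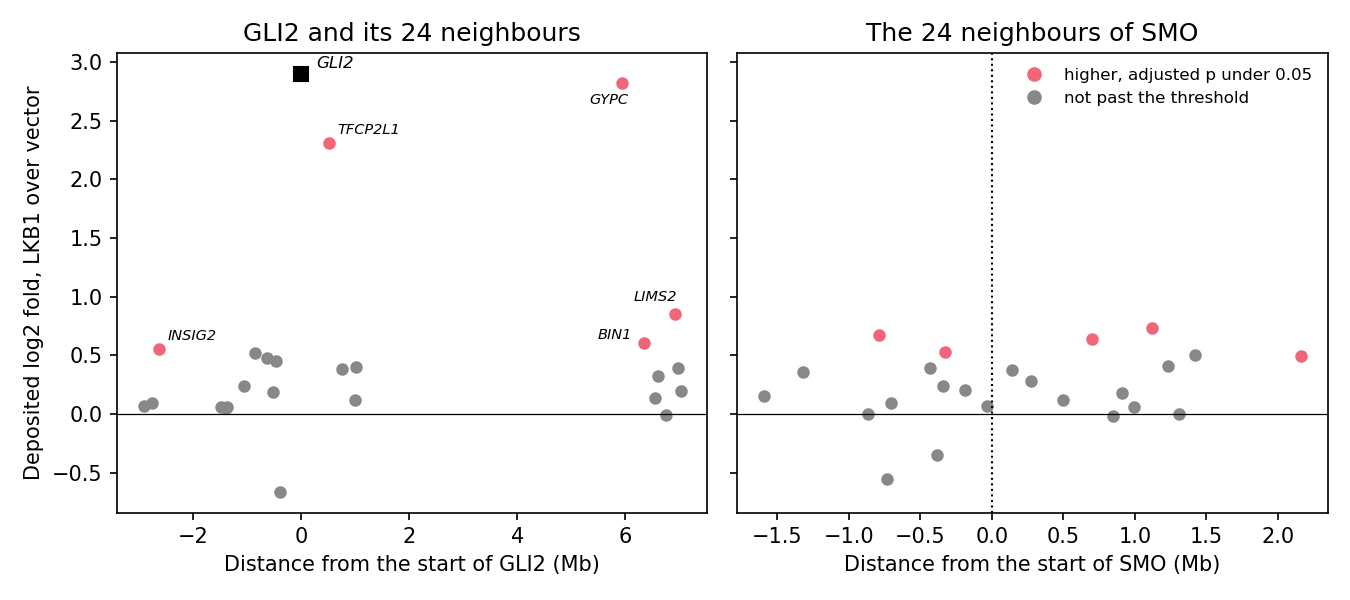
Deposited log2 folds (LKB1 over vector, y axis) of the 24 nearest measured protein-coding genes of GLI2 (left, square: GLI2) and SMO (right, dotted line: place of SMO, whose own fold is not drawn because it had 4 and 0 reads), by distance from the gene's start in Mb. Red points passed an adjusted p of 0.05, 5 in each panel, and TFCP2L1 and GYPC are the only neighbours above 1.

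The protein-coding genes of at least 200 reads closest to GLI2 in log2 fold in the authors' deposited table, over this 1 comparison, were the neurotrophin receptor gene NGFR (2.95, with 207 and 1670 reads), TP53I11 (2.69, 72 and 485) and the calcium pump gene ATP2B2 (2.65, 52 and 341). They lie on chromosomes 17, 11 and 3.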

How the data were processed

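RNA-seq of 4 libraries in 2 groups was used as 1 deposited table of the authors' own comparison. Per the submitters' processing notes, the build was hg19 and the tools were edgeR 2.6.0, TopHat2 2.0.6 and CASAVA 1.8.2. How reads were counted, with which annotation and whether by strand is not given in the sources used here. For each gene the authors deposited, per the file headers, a log2 fold change, the same change as a ratio, and raw and adjusted p-values. The adjustment was Benjamini-Hochberg over all genes (largest difference from a recomputed one 1.89e-06).

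Reads per line were recovered from the folds, which carry priors of 0.254868 (LKB1) and 0.245132 (vector) reads. Of 28242 genes with reads, 27299 (96.7%) matched whole totals up to 3000 reads at a relative tolerance of 8e-10. Of these, 50 matched in more than 1 way. As a control, the matching was repeated with each prior altered by a fraction of 0.001, and only 149 genes then matched. Genes not matched were treated as having more than 3000 reads in a line. Intervals (exact Clopper-Pearson, Wilson or Poisson, 95%) cover counting error only. Assumed variations used an exact negative binomial test (scipy 1.17.1), tested on simulated data. Lengths came from GENCODE 29 by identifier.

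Members and lists were chosen with earlier results of these data known. Named were the 8 members, STK11, called pathway genes, up to 4 further genes per list by p, the nearest neighbours of called members, the 3 genes most like GLI2, and markers. The values of 1 gene under this rule are not reported here. SHH, GAS1, EVC2, PTHLH, INSIG2, BIN1, LIMS2, GYPC, WFS1 and PDGFD were chosen after their values were seen. Alternatives were other thresholds, a filter of 40 reads, assumed variations, centring and neighbour numbers.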

Additional observations from a re-analysis of the deposited data

How the results depend on the processing

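Of the 8 genes, 4 were called; 3 were called at an adjusted p under 0.01, at a fold of at least 2 and at an assumed variation of 0.2, and 1 at 0.4. The list counts moved by over 1.5 times as follows. At an assumed variation of 0.4 the calls were 0 of 2 for ligands, 0 of 3 for receptors, 1 of 4 for GLI factors and regulators, 0 of 2 for cilium genes and 1 of 3 for targets; at 0.2 they were 1 for receptors, 2 for GLI factors and 0 for cilium genes. At an adjusted p under 0.01, 1 ligand gene and 0 cilium genes were called. At a fold of at least 2, 1 receptor gene, 2 GLI factors and 0 cilium genes were called. Adjusted over genes with at least 40 reads, 1 ligand gene was called, since DHH has fewer. GLI factors and regulators had 6 calls there and at an adjusted p under 0.1, against 4, which is not over 1.5 times. Centring moved log2 folds by 0.01. Of all pathway genes, GSK3B and FOXM1, both within 0.01 of 0 and not called, changed sign. With 6 or 25 neighbours on each side the medians around GLI2 were 0.43 and 0.17 and those around GLI3 -0.06 and 0.08. The length of the longest transcript, chosen after seeing the data, moved the GLI2 share under LKB1 from 60.03% to 54.9% and put PTCH1 (45.5 reads per kb) above GLI2 (43.5) there. No paired analysis was possible because the file holds no values per library, and for the same reason no library could be left out.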

Other observations

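By the authors' deposited table, PRKACA lies on chromosome 19 among genes that were lower. Of its 24 nearest measured neighbours none had a log2 fold above 0, and the median was -0.54. Among them 15 were called lower (62.5%), against 7.3% of all protein-coding genes with at least 40 reads. PRKACA itself was at -0.60 in the authors' deposited table, with 11 neighbours below it. In the authors' deposited table the neighbours of EVC had a median of -0.03 and those of CDON one of 0.01, while EVC and CDON stood at 0.58 and 0.76. The gene next to EVC on the side away from EVC2, the endoplasmic reticulum gene WFS1, was at -1.53, and PDGFD, a growth factor gene next to DYNC2H1, was at -3.82 by the authors' deposited table.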
